A study of Mus musculus with 4 samples.

Results

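MHC class I molecules display peptides from inside the cell to CD8 T cells. The 10 genes described here encode their light chain (B2m), the classical heavy chains (H2-K1 and H2-D1), the peptide transporter and its bridge to the heavy chain (Tap1, Tap2 and Tapbp), the inducible catalytic subunits of the proteasome (Psmb8, Psmb9 and Psmb10) and a transcriptional coactivator of the class I genes (Nlrc5). They were chosen by their function in this pathway, with the values of these libraries already known, and are 10 of the 17630 genes in the files. Their differences between libraries are therefore given as a description, without a test.

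The libraries came from wild-type mouse mammary basal cells, which line the outside of the ductal epithelium and include its stem cells. Basal cells were sorted as cells that bind CD24 and large amounts of CD29. The gate left out cells with the endothelial marker CD31, the leukocyte marker CD45 or the erythroid marker TER119. The sorted cells came either from control mice, whose treatment label is none, or from mice given 6-OHDA (6-hydroxydopamine), a neurotoxin that destroys sympathetic nerve endings. Colonies had formed from basal cells embedded in Matrigel (a basement membrane gel) with epidermal growth factor and insulin, transferrin and selenium, either without further treatment or with SP, the β2 adrenergic agonist salbutamol together with the α1 adrenergic agonist phenylephrine. The title of the SP library carries the number 200 and that of its control the number 0, with no unit. The strain and age of the mice and the number of animals pooled are not given in the labels for these libraries. Each of the 4 groups had 1 library, so the spread between animals or cultures is not known for any value below, and no p-value is given.

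In the class I pathway the proteasome cuts cytosolic proteins, the TAP transporter carries the peptides into the endoplasmic reticulum, and tapasin holds an empty heavy chain and light chain beside the transporter until a peptide is bound. Interferons raise most of these genes, and NLRC5 acts at their promoters together with the RFX, CREB and NF-Y factors. In the immunoproteasome the inducible subunits replace the constitutive Psmb5, Psmb6 and Psmb7 subunits, which changes the peptides that are made.

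Values are FPKM, fragment counts scaled by transcript length and by sequencing depth, which allow levels of genes to be compared within a library. Differences between libraries are on the log2(FPKM + 1) scale, which understates the change of low genes. A gene was compared where its FPKM averaged 1 or more over both libraries, and it is called lower or higher where the log2 difference was over 0.3 in size. The FPKM summed to 508071 in control basal cells, 517504 in 6-OHDA-treated basal cells, 577631 in control colonies and 588202 in SP-treated colonies. Read counts were not used here. Estimated from the spacing of low values among single-transcript genes, 1 FPKM stood for roughly 15.5 to 18.8 fragments per kilobase of transcript over the 4 libraries and the assumed fragment lengths of 150 to 300 bases. The fits behind this range were loose, with scores of 0.25 to 0.49 where a perfect fit scores 1.

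The defining keratins of basal cells were abundant in all 4 libraries. Krt14 was at 3595 FPKM in control basal cells, 2633 in 6-OHDA-treated basal cells, 3298 in control colonies and 6920 in SP-treated colonies, and all 12 genes of the basal and myoepithelial list were above 1 FPKM in every library. Of these 12 genes 8 were lower in control colonies than in control basal cells, 3 were within the threshold and 1 was higher. Their median log2 difference was -0.75. The higher gene was Krt5 at 1002 FPKM in control basal cells and 1888 in control colonies (0.91). The contractile members Myh11, Cnn1, Mylk and Acta2 were among the lower genes, with Myh11 at 467 and 11.2 FPKM and Acta2 at 1949 and 402 FPKM. Most leukocyte markers were low, with exceptions in colonies. Ptprc, which encodes CD45, was at 0.77 FPKM in control basal cells, 0.47 in 6-OHDA-treated basal cells and 0 in both colony libraries, and the 11 pan-leukocyte genes summed to 24.8, 25.9, 51.6 and 60.7 FPKM in that order of libraries, led in each by Arhgdib at 14.0 to 52.7 FPKM, with 4 of the 11 at 0 in each colony library. Cytip was at 0.65, 0.90, 17.5 and 7.12 FPKM. The 13 macrophage and dendritic cell markers summed to 15.8, 14.8, 3.22 and 4.77 FPKM, led by Cd68, and 11 T, NK and B cell markers to 5.38, 4.13, 0.60 and 1.32 FPKM, led by Cd79a. The 14 luminal markers summed to 1537, 1472, 2605 and 2403 FPKM, led by Krt8.

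The sorted libraries held endothelial transcripts despite the gate. The 8 endothelial markers summed to 323 FPKM in control basal cells and 319 in 6-OHDA-treated basal cells, led by Pecam1 (the gene of CD31) at 107 and 93.0 FPKM, and to 3.62 and 5.56 FPKM in control and SP-treated colonies, where Cdh5 was at 0.12 FPKM in each. The library of 6-OHDA-treated basal cells also stood apart by salivary secretory transcripts. The 16 genes of that list summed to 16150 FPKM there, or 3.12% of the library, led by Bpifa2 at 7277 FPKM, against 1.97 FPKM in control basal cells and 1.67 and 1.3 in the colony libraries, and Bpifa2 was listed at 0 in control basal cells. Fibroblast markers were higher in it as well, with a sum over 8 genes of 391 FPKM against 193 in control basal cells, led by Dcn at 135 and 115 FPKM, and 5 of the 8 were called higher, among them Col3a1 at 91.7 against 18.3 FPKM. The sums were 45.8 FPKM in control colonies and 27.8 in SP-treated colonies.

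In control basal cells the class I genes spanned a wide range, from B2m at 995 FPKM to Psmb9 at 10.4 FPKM, a ratio of 95.9. B2m and H2-K1 ranked at positions 84 and 97 among all genes of that library. The 10 genes together made up 0.54% of the FPKM sum in control basal cells, 0.369% in 6-OHDA-treated basal cells, 0.288% in control colonies and 0.264% in SP-treated colonies. On the deposited values, control basal cells had the highest value of the 4 libraries for 6 of the 10 genes, and 6-OHDA-treated basal cells had the lowest value for 6. These counts depend on the scaling, since the values of all genes were shifted between sorted cells and colonies, as given below.

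**Figure D1:**
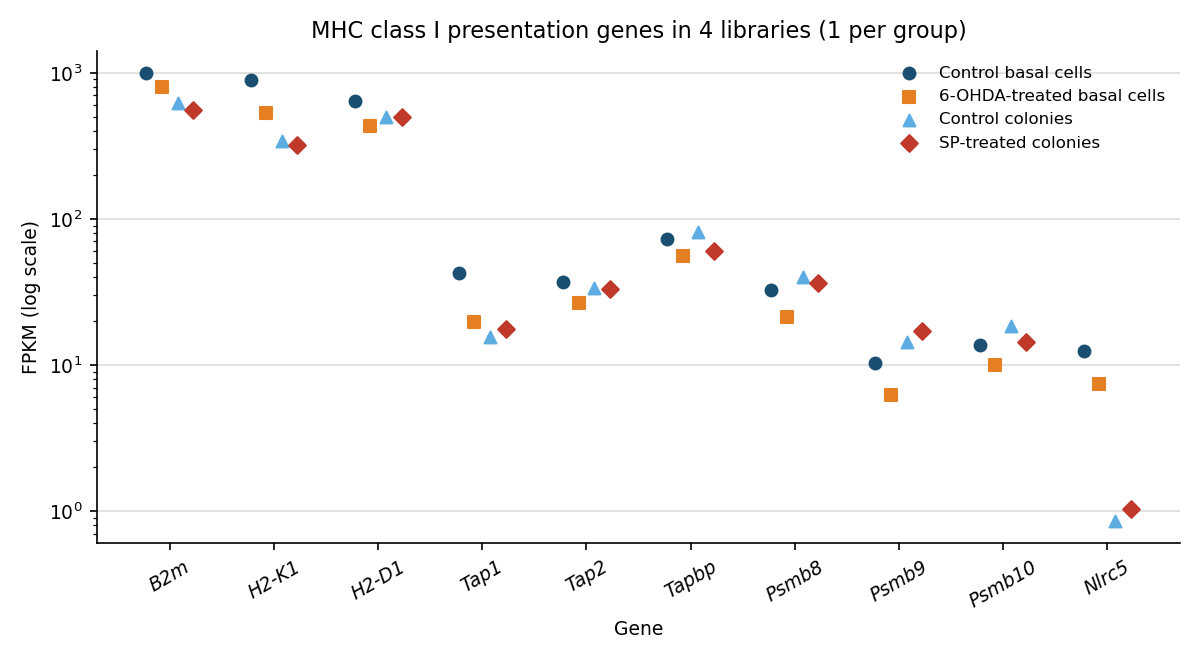
FPKM of the 10 class I presentation genes (horizontal axis) on a log scale (vertical axis), with 1 point for each library and no error bars since each group has 1 library. For each gene the 6-OHDA-treated basal cells lie below the control basal cells, and Nlrc5 lies near 1 FPKM in both colony libraries.

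All 10 genes were lower in 6-OHDA-treated than in control basal cells, with a median log2 difference of -0.56. Among all 11749 genes compared, 8.35% were lower and 15.8% were higher by over 0.3, and the median was 0.06. The smallest of the 10 differences, that of B2m, lay just past the threshold at -0.32, and the largest was that of Tap1 at -1.07.

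Cell type markers and reference genes were compared in the same way. The endothelial markers, whose sums were 323 and 319 FPKM in the sorted libraries, had a median of 0.14, with 0 of 8 lower and 2 higher, Emcn (0.49) and Tek (0.43). Of 6 compared pan-leukocyte markers 2 were lower, 4 were within the threshold and 0 were higher, with a median of 0.08. The lower genes were Coro1a at 1.4 and 0.67 FPKM (-0.52) and Cd52 at 2.28 and 1.53 FPKM (-0.37). Of 4 compared macrophage and dendritic cell markers 1 was lower, Mrc1 at 3.93 and 2.25 FPKM (-0.60), 3 were within the threshold and 0 were higher, with a median of -0.09. Of 12 basal markers 2 were lower, Krt17 (-0.46) and Krt14 (-0.45), and 1 was higher, Acta2 (0.40). Of 13 compared luminal markers 3 were lower and 3 were higher, with Csn3 at 38.4 and 104 FPKM (1.41) and Aldh1a3 at 36.5 and 18.9 FPKM (-0.92). The part of these markers in the class I differences was not tested. Among 10 commonly used reference genes 0 were lower and 1 was higher, Hprt at a log2 difference of 0.41. In bulk RNA, fewer cells of a type and less RNA per cell cannot be told apart, and the part of the salivary and fibroblast transcripts in these differences was not tested. After both libraries were rescaled to the same sum without the salivary genes, the 10 genes were still lower, with a median of -0.55.

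Across the chains of the class I molecule, the heavy chains differed more than the light chain. B2m, the β2-microglobulin subunit that all classical class I molecules share, was at 995 FPKM in control basal cells and 794 in 6-OHDA-treated basal cells, which is 79.9% of the control. H2-K1, a classical heavy chain, went from 893 to 534 FPKM, or 59.7% of the control, a log2 difference of -0.74. H2-D1, the other classical heavy chain, went from 637 to 434 FPKM, a log2 difference of -0.55. The ratio of both heavy chains to B2m was 1.54 in control and 1.22 in 6-OHDA-treated basal cells. Multiplying a library by a common factor does not alter this ratio, whereas quantile normalization can. In the files H2-K1 and H2-D1 share stretches of sequence with other class I genes. Of all stretches of 50 bases in the longest coding transcript, 8.79% in H2-K1 and 14.3% in H2-D1 also occur in transcripts of other genes, so their values depend on how shared fragments were divided. For B2m, the annotation places another gene, Patl2, over its 5396 bases, and fragments of overlapping genes cannot be separated where the strand is not kept.

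The transporter subunits did not move by the same amount. Tap1, which with Tap2 forms the peptide channel, was at 42.7 FPKM in control basal cells and 19.8 in 6-OHDA-treated basal cells, so that less than in any other of the 10 genes was left, at 46.3% of the control. Only 90 of the 11749 genes had a more negative log2 difference than Tap1. Tap2 was at 37.1 and 26.4 FPKM, a log2 difference of -0.48, and the ratio of Tap1 to Tap2 went from 1.15 to 0.749. Tapbp, which encodes tapasin, was at 72.3 and 55.3 FPKM, a log2 difference of -0.38. Of 14 helpers of folding and loading in the endoplasmic reticulum, 1 was lower and 2 were higher. The lower gene was Tapbpl, which encodes the tapasin-related editor of peptides, at 15.7 and 12.4 FPKM (-0.32). The higher genes were Hsp90b1, a chaperone, at 211 and 271 FPKM (0.36), and Canx, the membrane chaperone calnexin, at 103 and 127 FPKM (0.30). Of these, Tapbpl was within the threshold after rescaling to the same sum without salivary genes and Canx after median ratio scaling. Of 8 peptidases that trim peptides 0 were lower (1 after median ratio scaling). Thop1, which destroys peptides in the cytosol, was higher at 6.94 and 9.34 FPKM (0.38, within the threshold with a pseudocount of 5).

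The inducible proteasome subunits were lower and their constitutive counterparts were not. Psmb8, the inducible counterpart of Psmb5, was at 32.4 FPKM in control basal cells and 21.4 in 6-OHDA-treated basal cells, a log2 difference of -0.58. Psmb9, the counterpart of Psmb6, was at 10.4 and 6.26 FPKM (-0.65), and Psmb10, the counterpart of Psmb7, at 13.7 and 10.06 FPKM (-0.41). Psmb5, Psmb6 and Psmb7 had log2 differences of 0.09, 0.09 and 0.00. Among 11 compared subunits of the rest of the 20S core, 0 were lower and 2 were higher, with Psma1 at 50.1 and 67.9 FPKM (0.43), and in the 19S regulatory particle 0 of 18 were lower. Among 9 activators and assembly factors 1 was lower and 1 was higher (0 and 0 with a pseudocount of 5). The higher gene was Psmg2, an assembly chaperone of the 20S core, at 6.78 and 9.46 FPKM (0.43). The lower gene was Psme1, a subunit of the interferon-inducible 11S activator, at 91.8 and 73.8 FPKM (-0.31, within the threshold after rescaling without salivary genes), and its partner Psme2 was at 78.9 and 70.9 FPKM (-0.15).

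The inducible subunits were also taken as a share of each pair, which multiplying a library by a common factor cannot alter. Psmb8 made up 29.7% of Psmb8 plus Psmb5 in control basal cells, 20.7% in 6-OHDA-treated basal cells, 17.8% in control colonies and 16% in SP-treated colonies. The Psmb8 share was highest in control basal cells. Psmb9 made up 10.8% of its pair with Psmb6 in control basal cells, 6.43% in 6-OHDA-treated basal cells, which was the lowest, and 11.2% in SP-treated colonies. Psmb10 made up 8.35%, 6.26%, 7.85% and 5.36% of its pair with Psmb7 in the same order of the 4 libraries, lowest in SP-treated colonies. In the 4 libraries the constitutive transcript of each pair was thus the more abundant. Part of Psmb5 has near copies elsewhere, since 57.1% of its stretches of 50 bases occur in transcripts of other genes, mainly in Gm3375, so the share of the Psmb8 pair also rests on how such fragments were divided.

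**Figure D2:**
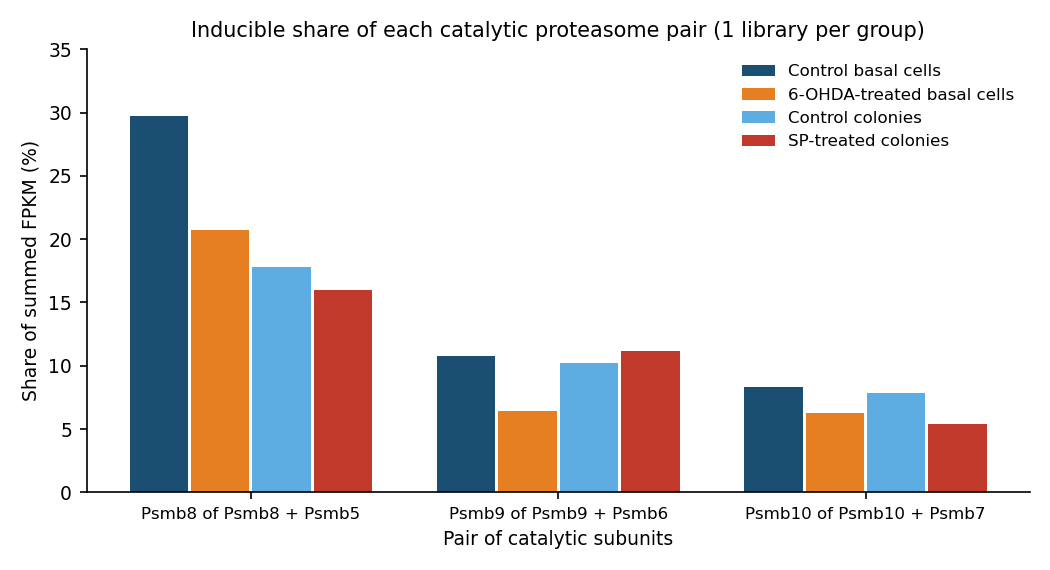
Share of the inducible subunit in the summed FPKM of each catalytic pair, in percent (vertical axis, from 0), for the 3 pairs (horizontal axis), with 1 bar for each library. All 3 shares are lower in 6-OHDA-treated than in control basal cells, and the Psmb8 share goes from 29.7% to 20.7%.

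Nlrc5 was at 12.5 FPKM in control basal cells and 7.45 in 6-OHDA-treated basal cells, a log2 difference of -0.67. Of 27 compared partners and upstream regulators, 9 were lower and 0 were higher, with a median of -0.16, and 7 were lower after rescaling without salivary genes, as also with a pseudocount of 5. Large differences among them were those of Irf8, an interferon regulatory factor best known from myeloid cells, at 29.0 and 8.48 FPKM (-1.66), and Irf7, which drives type I interferon responses, at 38.8 and 19.4 FPKM (-0.96). Of 6 interferon receptor genes 0 were lower and 2 were higher, Ifngr2 at 13.0 and 17.2 FPKM (0.38) and Ifnar1 at 5.56 and 7.49 FPKM (0.37), of which 1 was past the threshold after quantile normalization. The 4 interferon genes in the files summed to 0.30 FPKM in control and 0.06 FPKM in 6-OHDA-treated basal cells. Interferon-stimulated genes were lower in 32 of 33 cases with a median of -1.26, led by Rsad2, an antiviral enzyme, at 169 and 19.5 FPKM (-3.05). The exception, Xaf1, named here after its value was seen, was at 3.97 and 3.64 FPKM.

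Other heavy chains encoded in the MHC were lower as well. Of 8 compared, 7 were lower in 6-OHDA-treated basal cells, with a median of -0.67, and 1 was higher, H2-M9 (named after its value was seen), at 1.38 and 2.53 FPKM. H2-Q4 was the most abundant of them at 168 and 108 FPKM (-0.63). H2-Q7, a nonclassical chain of the Qa-2 group, was at 38.1 and 18.6 FPKM (-0.996), H2-Q6 at 67.9 and 35.9 FPKM (-0.90) and H2-Q9 at 28.2 and 15.9 FPKM (-0.79). H2-T23, which encodes Qa-1 and is recognized by NK cell receptors, was at 136 and 105 FPKM (-0.37), H2-T22 at 40.9 and 24.7 FPKM (-0.70) and H2-M3, which presents formylated peptides, at 6.85 and 4.08 FPKM (-0.63). Values of the Q and T genes are uncertain one by one, since 34.9% of the stretches of 50 bases in H2-Q7, 32% in H2-Q6 and 44.7% in H2-T22 are shared with other genes.

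Outside the MHC the class I-like genes gave a mixed picture, with 2 of 6 lower and a median of -0.07. The lower genes were Procr, whose protein has a class I-like fold and which marks mammary stem cells, at 253 and 191 FPKM (-0.41), and Cd1d1 at 7.12 and 5.36 FPKM (-0.35). Fcgrt, the neonatal Fc receptor that also pairs with β2-microglobulin, was within the threshold at 22.9 and 20.3 FPKM (-0.16). In the class II pathway, which serves CD4 T cells, 5 of 8 genes were lower, led by Cd74, the invariant chain, at 73.0 and 19.5 FPKM (-1.85). Among 8 ligands of T and NK cell receptors, 2 were lower and 1 was higher. Cd274, which encodes PD-L1, was at 41.8 and 6.97 FPKM (-2.42), Nectin2 at 35.2 and 28.2 FPKM (-0.31) and Pvr at 39.1 and 49.8 FPKM (0.34). Nectin2 was within the threshold after rescaling without salivary genes, and Pvr after median ratio scaling.

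Control colonies were compared with control basal cells to describe the genes in culture. The comparison with 6-OHDA above and the comparison with SP below each share a library with it, so the values stand side by side and were not related to each other. Here the whole distribution was shifted. Of 12244 genes compared, 26.6% were lower and 55.7% were higher in colonies, with a median of 0.45, and after scaling by the median ratio of the compared genes 39.6% were lower and 40.0% were higher. On the deposited values 5 of the 10 class I genes were lower, 3 were higher and 2 were within the threshold, with a median of -0.25. Relative to the shift, after the same scaling, 7 were lower and 0 were higher, with a median of -0.75. Of the endothelial markers, whose sums were 323 and 3.62 FPKM, 8 of 8 were lower in colonies (median -4.33). The fibroblast markers had 6 of 8 lower and 1 higher (-1.58). The macrophage and dendritic cell markers had 3 of 3 compared lower (-1.53). Basal markers had 8 of 12 lower and 1 higher (-0.75). Luminal markers had 2 of 14 lower and 10 higher (0.67, and 0.16 with 3 lower and 7 higher after median ratio scaling). Of 3 compared pan-leukocyte markers 1 was lower and 2 were higher, Cytip and Arhgdib, with a median of 1.16. The part of these cell type markers in the class I differences was not tested. Of the 10 reference genes 0 were lower and 8 were higher on the deposited values, and 2 were lower and 2 higher after median ratio scaling.

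Nlrc5 differed most, at 12.5 FPKM in control basal cells and 0.86 in control colonies, or 6.89% of the level in sorted cells (log2 difference -2.86, and -3.21 after median ratio scaling). At the estimated depth 0.86 FPKM stands for about 13.9 to 16 fragments per kilobase of its transcript. Tap1 went from 42.7 to 15.6 FPKM (-1.40) and H2-K1 from 893 to 343 FPKM (-1.38), while B2m went from 995 to 618 FPKM (-0.69) and H2-D1 from 637 to 499 FPKM (-0.35). The order of the classical heavy chains was thereby turned, with a ratio of H2-K1 to H2-D1 of 1.4 in control basal cells and 0.687 in control colonies. The part of MHC alleles, or of how shared fragments were divided, in this ratio was not tested. After median ratio scaling the differences were -1.89 for Tap1 and H2-K1, -1.19 for B2m and -0.86 for H2-D1, whereas quantile normalization left H2-D1 within the threshold at -0.27.

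Tap2, Tapbp and the inducible subunits were near or above their levels in sorted cells before scaling. Tap2 was at 37.1 FPKM in control basal cells and 33.6 in control colonies (-0.14, and -0.63 after median ratio scaling), and Tapbp at 72.3 and 80.8 FPKM (0.16, and -0.34 after that scaling). Psmb8 was at 32.4 and 40.3 FPKM, Psmb9 at 10.4 and 14.4 FPKM and Psmb10 at 13.7 and 18.4 FPKM, with log2 differences of 0.31, 0.44 and 0.40 that became -0.19, -0.03 and -0.08 after that scaling, so that these subunits followed the shift of all genes. Within the pair at the shared promoter region described further on, the ratio of Tap1 to Psmb9 was 4.12 in control basal cells and 1.08 in control colonies. The constitutive subunits were higher, with Psmb5 at 76.7 and 186 FPKM (1.27), although only 1 of the 3 was past the threshold after median ratio scaling. In the rest of the 20S core 11 of 11 genes were higher (6 after that scaling), in the 19S particle 15 of 18 (4 after it, with 2 lower), and among the trimming peptidases 5 of 8 (1 after it, with 2 lower).

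**Figure D3:**
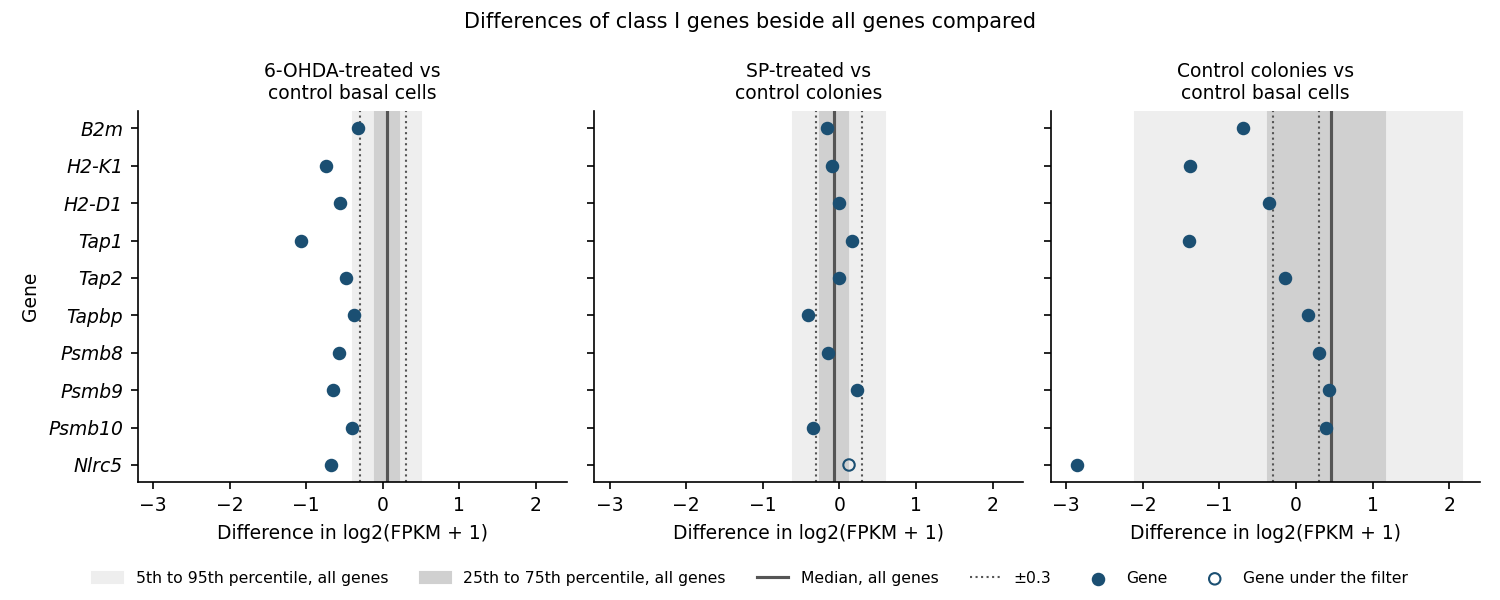
Difference in log2(FPKM + 1) (horizontal axis) of each class I gene (vertical axis, points; an open circle is under the filter on low values) in the 3 comparisons, with bands for the central ranges of all genes compared, their median as a solid line and the threshold of 0.3 as dotted lines. With 6-OHDA all 10 points lie left of the lower threshold. With SP 2 points do, and in colonies the median of all genes lies at 0.45 on the deposited values.

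Among the regulators, 19 of 27 were lower and 6 were higher in control colonies than in control basal cells, with a median of -0.79, and 21 were lower and 4 higher after median ratio scaling. Irf8 went from 29.0 to 0.06 FPKM (-4.82), Socs1, an inhibitor of interferon signaling, from 20.1 to 0.87 FPKM (-3.49) and Socs3, an inhibitor of cytokine signaling, from 353 to 57.1 FPKM (-2.61). Interferon-stimulated genes were lower in 29 of 32 cases and higher in 2 (0 after median ratio scaling), with a median of -2.92, and Cxcl10, a chemokine for T cells, went from 584 to 1.06 FPKM (-8.15). Cd274 went from 41.8 to 0.17 FPKM.

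The other MHC heavy chains split in colonies. Of 9 compared, 6 were lower and 2 were higher. H2-Q7 was at 38.1 FPKM in control basal cells and listed at 0 in both colony libraries, H2-Q6 went from 67.9 to 2.72 FPKM and H2-Q9 from 28.2 to 1.70 FPKM, so these 3 genes summed to 134 FPKM in control basal cells and 4.42 in control colonies. H2-T-ps, annotated as a pseudogene by its symbol, went the other way, from 0.93 to 19.2 FPKM (3.38), and H2-Q1, named after its value was seen, from 0.12 to 2.80 FPKM (1.76). Of the stretches of 50 bases in H2-T-ps, 18.0% also occur in H2-T23, which went from 136 to 42.2 FPKM. Whether fragments were assigned differently between these copies, or the mice differed in their MHC alleles, was not tested. Of 7 compared class I-like genes outside the MHC 2 were lower and 4 were higher in colonies, with a median of 0.74. The largest difference among them was that of Procr, which went from 253 to 3.35 FPKM (-5.87).

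Most class I genes, like most of all genes, were within the threshold between SP-treated and control colonies. Of 11849 genes compared between SP-treated and control colonies, 19.8% were lower and 11.7% were higher, and after scaling by the median ratio 14.8% were lower and 14.8% were higher. The filter was passed by 9 of the 10 class I genes, of which 2 were lower and 0 were higher, with a median of -0.09 against -0.07 for all genes. Tapbp was at 80.8 FPKM in control and 60.7 in SP-treated colonies (-0.41), and Psmb10 at 18.4 and 14.3 FPKM (-0.34, and -0.27 after median ratio scaling). Nlrc5, the gene under the filter, was at 0.86 and 1.03 FPKM.

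B2m and the classical heavy chains were within the threshold with SP on the deposited values. B2m was at 618 and 553 FPKM (-0.16), H2-K1 at 343 and 322 FPKM (-0.09) and H2-D1 at 499 and 498 FPKM (-0.00). B2m was past the threshold after quantile normalization, at -0.31. Of 8 other heavy chains encoded in the MHC 3 were lower and 0 were higher, with a median of -0.15. The lower genes were H2-T23 at 42.2 and 29.6 FPKM (-0.50), H2-T-ps at 19.2 and 12.8 FPKM (-0.55) and H2-Q1 at 2.80 and 2.08 FPKM (-0.30). Taken with the class I-like genes outside the MHC, 7 of 14 were lower and 2 were higher, against 5 and 3 after median ratio scaling. Tap1 was at 15.6 and 17.5 FPKM (0.16), Tap2 at 33.6 and 33.3 FPKM (-0.01), Psmb8 at 40.3 and 36.4 FPKM (-0.14) and Psmb9 at 14.4 and 17.01 FPKM (0.23). Tap1 and Psmb9, which are neighbours in the genome, were the compared genes with the most positive values. Basal keratins were higher in the same library, with Krt5 at 1888 and 4579 FPKM (1.28) and 7 of 12 basal markers higher and 1 lower. Of 14 luminal markers 6 were lower and 2 were higher (4 and 2 after median ratio scaling), with Foxa1 at 15.2 and 8.32 FPKM (-0.80) and Csn3 at 6.41 and 19.02 FPKM (1.43). Of 6 compared fibroblast markers 4 were lower and 1 was higher, with Col1a2 at 20.6 and 3.94 FPKM (-2.13). In the same comparison 4 of the 10 reference genes were higher and 0 lower (6 and 0 after median ratio scaling), with Pgk1 at 261 and 1207 FPKM (2.20) and Gapdh at 1316 and 3177 FPKM (1.27). The part of these changes in the class I values was not tested.

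Around the pathway, SP-treated colonies had 1 regulator of 26 lower and 0 higher (1 after median ratio scaling). The lower gene was Irf7 at 6.85 and 4.71 FPKM (-0.46). Of 21 compared interferon-stimulated genes 8 were lower and 1 was higher, with Rtp4 at 6.60 and 3.91 FPKM (-0.63) and Oas1a, an antiviral nucleotide synthase, at 2.10 and 3.66 FPKM (0.59). The class I-like genes outside the MHC moved both ways, with 4 of 6 lower and 2 higher on the deposited values. Their counts after median ratio scaling are within those given above together with the MHC heavy chains. Ulbp1, a ligand of the NK cell receptor NKG2D, was at 4.48 and 11.4 FPKM (1.18), Procr at 3.35 and 6.55 FPKM (0.80) and Fcgrt at 18.2 and 8.68 FPKM (-0.99). In the class II list 1 of 5 compared genes was lower and 1 was higher, with a median of -0.19. The lower gene was Ifi30 at 47.2 and 35.7 FPKM (-0.39). The higher gene was H2-Ab1, a class II β chain, at 22.6 and 58.1 FPKM (1.32), while its partner H2-Aa was at 0 and 0.06 FPKM.

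In position, 7 of the 10 genes lie in the MHC on chromosome 17 of GRCm38, and B2m on chromosome 2 and Psmb10 and Nlrc5 on chromosome 8 lie outside it. Psmb9, Tap1, Psmb8 and Tap2 sit side by side in 34292 bases at chr17:34182030-34216321. Tapbp is at chr17:33919478-33929290, H2-K1 at chr17:33996012-34000619 and H2-D1 at chr17:35263094-35267497, while B2m is at chr2:122147687-122153082, Psmb10 at chr8:105935728-105938392 and Nlrc5 at chr8:94434335-94527272. The interval chr17:33919478-36190151, which starts with Tapbp, has 207 genes in the RefSeq annotation, of which 126 are in the files. Apart from the class I and class II genes, 73 genes of this interval were compared between sorted libraries. Of these 8 were lower with 6-OHDA and 7 were higher, with a median of -0.01, so the neighbours of the class I genes had shares of 11% and 9.59% against 8.35% and 15.8% of all genes. The neighbour with the largest fall was the complement gene C2, at 18.2 and 8.79 FPKM (-0.97), named after its value was seen.

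The genes with the nearest profile over the 4 libraries were found by the Euclidean distance of centred log2(FPKM + 1) values to the median profile of the 10 genes, among 9111 other genes whose FPKM averaged 5 or more. These were Amotl2 at a distance of 0.08, Dhx38 at 0.09, Bop1 and Rmdn3 at 0.10, Tom1 at 0.11, Dcp2, Map3k10 and Irf2bp1 at 0.12, and Fiz1 and Laptm4b at 0.13. Amotl2 was at 48.9 FPKM in control basal cells, 32.7 in 6-OHDA-treated basal cells, 38.6 in control colonies and 36.2 in SP-treated colonies. The 10 genes differed among themselves by this measure, from H2-D1 at 0.09 to Nlrc5 at 2.43, so the median profile stands for some of them only.

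The promoter sequences are shown because the genes were lower together in 6-OHDA-treated basal cells. RefSeq windows of GRCm38.p6 were matched for 8 of the 10 genes, and the 250 bases before the start given with each window were searched on both strands for an interferon regulatory factor motif (AANNGAAA), an NF-κB motif (GGNNTTNCC), the core of the X2 box bound by CREB factors (TGACG) and the Y box bound by NF-Y (ATTGG). Tap2 and Nlrc5 were not matched. These short forms were written with the sequences known. Capitals mark matches to these motifs on either strand, and none of the printed matches overlap. The windows lie at chr2:122147437-122147686 on the plus strand for B2m, chr17:34000348-34000597 on the minus strand for H2-K1 and chr17:35262844-35263093 on the plus strand for H2-D1. The H2-K1 window belongs to a start inside the annotated gene, which reaches to chr17:34000619, while those of B2m and H2-D1 end where the annotated gene begins.
B2m: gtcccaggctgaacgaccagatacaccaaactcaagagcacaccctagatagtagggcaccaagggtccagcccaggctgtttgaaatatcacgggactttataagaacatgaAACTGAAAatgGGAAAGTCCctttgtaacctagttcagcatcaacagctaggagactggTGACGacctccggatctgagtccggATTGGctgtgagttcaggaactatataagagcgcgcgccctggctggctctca
H2-K1: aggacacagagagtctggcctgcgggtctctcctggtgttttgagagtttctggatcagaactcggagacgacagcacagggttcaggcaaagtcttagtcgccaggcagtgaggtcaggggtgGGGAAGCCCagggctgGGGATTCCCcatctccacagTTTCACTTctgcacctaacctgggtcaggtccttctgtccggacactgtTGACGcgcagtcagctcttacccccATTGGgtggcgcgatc
H2-D1: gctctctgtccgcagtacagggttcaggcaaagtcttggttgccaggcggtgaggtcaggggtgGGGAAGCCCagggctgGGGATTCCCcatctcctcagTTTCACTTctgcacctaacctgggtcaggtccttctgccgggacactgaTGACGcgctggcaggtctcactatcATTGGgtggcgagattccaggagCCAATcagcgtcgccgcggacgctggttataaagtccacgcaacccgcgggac

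All 3 windows hold the interferon regulatory factor, NF-κB, X2 and Y letters. In B2m these begin, in that order, 137, 126, 78 and 53 bases before the start. In H2-K1, counted from that inner start, the NF-κB letters come first, at 126 and 110 bases, followed by the interferon regulatory factor letters at 90, X2 at 41 and Y at 16 bases. H2-D1 has the same order, from 186 bases on, with another Y match at 53 bases. In both genes the NF-κB matches are GGGAAGCCC and GGGATTCCC, and the aligned parts of the windows are identical at 87.4% of positions. Over all 32851 windows of this length, 21.3% hold the interferon regulatory factor letters, 13.5% the NF-κB letters, 17.8% the X2 letters and 33.8% the Y letters. Among the 8 windows of class I genes the numbers were 3, 3, 5 and 6 in that order. The overlapping windows of Tap1 and Psmb9 hold the same X2 match and the same Y match and so count each of them again. The windows of H2-K1 and H2-D1, which are alike as given above, also count their shared letters again. The interferon regulatory factor and NF-κB letters were in the 3 printed windows only. Tap1 and Psmb9 held X2 and Y letters, Tapbp held Y letters only, and Psmb8 and Psmb10 held none of these letters. Such matches describe the sequence and say nothing of which factors were bound in these cells.

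Tap1 and Psmb9 start 225 bases apart and are read in opposite directions, so they share the interval at chr17:34187331-34187555, shown on the plus strand, on which Tap1 is read. It holds 1 X2 match and 1 Y match in capitals. From this interval, Tap1 was at 42.7, 19.8, 15.6 and 17.5 FPKM and Psmb9 at 10.4, 6.26, 14.4 and 17.01 FPKM in control basal cells, 6-OHDA-treated basal cells, control colonies and SP-treated colonies. Both were lower with 6-OHDA, and between the controls their deposited values differed in direction.
Tap1 and Psmb9: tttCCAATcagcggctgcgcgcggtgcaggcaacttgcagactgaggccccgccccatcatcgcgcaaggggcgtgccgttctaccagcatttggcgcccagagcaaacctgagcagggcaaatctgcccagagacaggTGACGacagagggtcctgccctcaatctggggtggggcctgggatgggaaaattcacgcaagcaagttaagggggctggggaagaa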

How the data were processed

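The authors deposited FPKM values with 2 decimals for 17630 genes in each of 4 RNA-seq libraries of sorted basal cells and basal colonies. The submitters' processing notes name the build mm10, Bowtie2, RSEM 1.3.1 and DESeq2 1.4.5, without their roles. Of the gene numbers, 17512 matched the RefSeq gene table of GRCm38.p6.

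Libraries were compared as differences in log2(FPKM + 1), with a pseudocount of 1, for genes whose FPKM averaged 1 or more, and a gene was called past 0.3. With 1 library in each group no test between conditions was possible. RSEM divides fragments that fit several genes by an estimate, which matters for near-identical MHC genes. FPKM are relative to all fragments, so abundant transcripts in 1 library lower the other values there. The calculation was tested on simulated data.

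The 10 members and the 22 other lists were chosen with earlier results of these data known. The text names the members, up to 3 compared genes of each list with the largest difference in each comparison, and the proteasome counterparts. It also names MHC heavy chains reaching 5 FPKM, leading markers and the 10 nearest profiles. Further genes are named outside these rules, and only some of them are marked. Among those not marked are Procr, Cd1d1, Fcgrt and Psme2 in the comparison of sorted libraries. Ptprc, and H2-Aa with SP, are named without having been compared. Motifs and transcript overlaps (GENCODE vM21) are descriptions, and 1 further motif searched is not reported here. Alternatives were pseudocounts of 0.1 and 5, no filter or a mean of 5 or more, rescaling to the same sum with and without salivary genes, median ratio scaling, quantile normalization and a threshold of 1. Python 3.11.15, numpy 2.4.6 and pandas 2.3.3 were used.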

Additional observations from a re-analysis of the deposited data

How the results depend on the processing

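With 6-OHDA all 10 class I genes were lower than in control basal cells under every alternative that kept the threshold of 0.3, and their median log2 difference lay between -0.62 and -0.47. At a threshold of 1, 1 gene (Tap1) was lower. With SP, where 2 genes were lower, 1 (Tapbp) was lower with a pseudocount of 5 and with median ratio scaling, and 0 were lower at a threshold of 1. Between control colonies and control basal cells, where 3 genes were higher, 0 were higher after rescaling to the same sum, with or without the salivary genes, after median ratio scaling, after quantile normalization and at a threshold of 1, which also left 3 of 5 lower genes. Median ratio scaling moved the median of the 10 genes from -0.25 to -0.75, since it removes the shift of all genes, and turned Psmb8 to -0.189, Psmb9 to -0.0323 and Psmb10 to -0.0789. Quantile normalization turned Psmb9 to -0.0146. The 2 genes lower with SP after quantile normalization were B2m at -0.31 and Tapbp, in place of Psmb10.

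The scaling also moved the split of all genes. Of the genes past the threshold, those higher made up 65.4% with 6-OHDA and 50.5% after median ratio scaling, 37.1% and 49.9% with SP, and 67.7% and 50.2% in control colonies. With a pseudocount of 5, 539 genes were lower and 804 higher with 6-OHDA, against 981 and 1857, and 1276 were lower with SP, against 2351. At a threshold of 1 the numbers lower and higher were 106 and 123 with 6-OHDA, 158 and 237 with SP, and 1619 and 3761 in control colonies. No paired analysis was possible because each group has 1 library, and for the same reason no library could be left out. The inducible shares do not change when a library is rescaled by a common factor, and they were not recomputed after quantile normalization. Low values limit Nlrc5 in colonies, whose log2 difference to sorted cells ran from -3.71 to -1.58 with the pseudocounts of 0.1 and 5.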
